A study of Mus musculus with 25 samples.

Results

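Neutrophils from mice without Mlkl were set against neutrophils from wild-type mice. The knockout group (Mlkl KO) had the genotype Mlkl-/- and the wild-type group (WT) carried no targeted allele. By their genotype labels neither group carried a conditional deletion, and no Cre allele is named for either. Both groups were C57BL/6J females aged 6 to 13 weeks and were labelled as not inflamed. The libraries were chosen by their genotype labels, 3 for Mlkl KO and 3 for WT, 6 of the 25 in the series. The other libraries carried knockouts of Ripk3 or Mlkl, or deletions of Ptpn6 and Casp8, and entered here through the shared estimate of spread and a few levels set alongside. Neutrophils were taken from a Percoll gradient (interface of 68% and 78%) of bone marrow, and their messenger RNA was sequenced in bulk. The labels do not say whether each library came from 1 mouse, whether the 2 groups were littermates, or how the Mlkl allele was made. The p-values therefore measure the spread between libraries within groups, shared over the 9 groups of the fit, which may be partly technical.

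Mlkl is the pseudokinase that carries out necroptosis, a lytic form of cell death. The kinase Ripk3 phosphorylates Mlkl, which then assembles at the plasma membrane and ruptures it, and caspase-8 restrains this pathway by cleaving its upstream kinases. Neutrophils form in the marrow from dividing precursors that make azurophil granules first, then specific and gelatinase granules, and leave the cell cycle as they mature.

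In all, 145 genes were higher and 43 were lower in Mlkl KO than in WT, out of 16206 tested by edgeR's quasi-likelihood test at a Benjamini-Hochberg adjusted p under 0.05. That is 1.16% of genes called, 0.895% higher and 0.265% lower. An unadjusted p under 0.05 was found for 3145 of the 16206 genes. Counts of list members at that level are to be read beside this share and say little where they are near it. The change exceeded 2-fold for 53 of the higher and 32 of the lower genes, and 40 called genes averaged under 5 CPM (counts scaled to the effective library size) in both groups. The median log2 change of all genes tested was -0.03. For each of the 188 called genes the values of the 3 Mlkl KO libraries and the 3 WT libraries did not overlap. Genes called for a small p are picked for such separation, and the share of all tested genes without overlap is not given here. The lack of overlap therefore adds no support to a call, here or where it is mentioned below. The libraries held 21811857 to 22807931 estimated counts.

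The Mlkl KO libraries differed among themselves more than the WT libraries did. The first principal component held 47.5% of the variance of the 6 libraries and put Mlkl KO replicate 1 at -0.762, Mlkl KO replicates 2 and 3 at 36.3 and 56.5, and the WT libraries between -40.5 and -23.7. Without Mlkl KO replicate 1, 589 genes were called (3.65%). Without Mlkl KO replicate 2 or replicate 3 there were 79 and 47, and without WT replicate 1, 2 or 3 there were 38, 40 and 57. DESeq2 called 788 genes (4.86%, with 3.65% higher and 1.22% lower). An edgeR fit of only these libraries (the 6-library fit) called 891 (6.06%, with 3.63% higher and 2.43% lower). Counts of list members from these settings therefore stand beside larger shares of all genes. Of the 73 called genes examined singly here, 24 were called in each of the 6 fits that left out 1 library, and 30 were called in 1 of those fits, which for 29 was the fit without Mlkl KO replicate 1. A call described as holding without any 1 library held in the 6 fits.

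**Figure D1:**
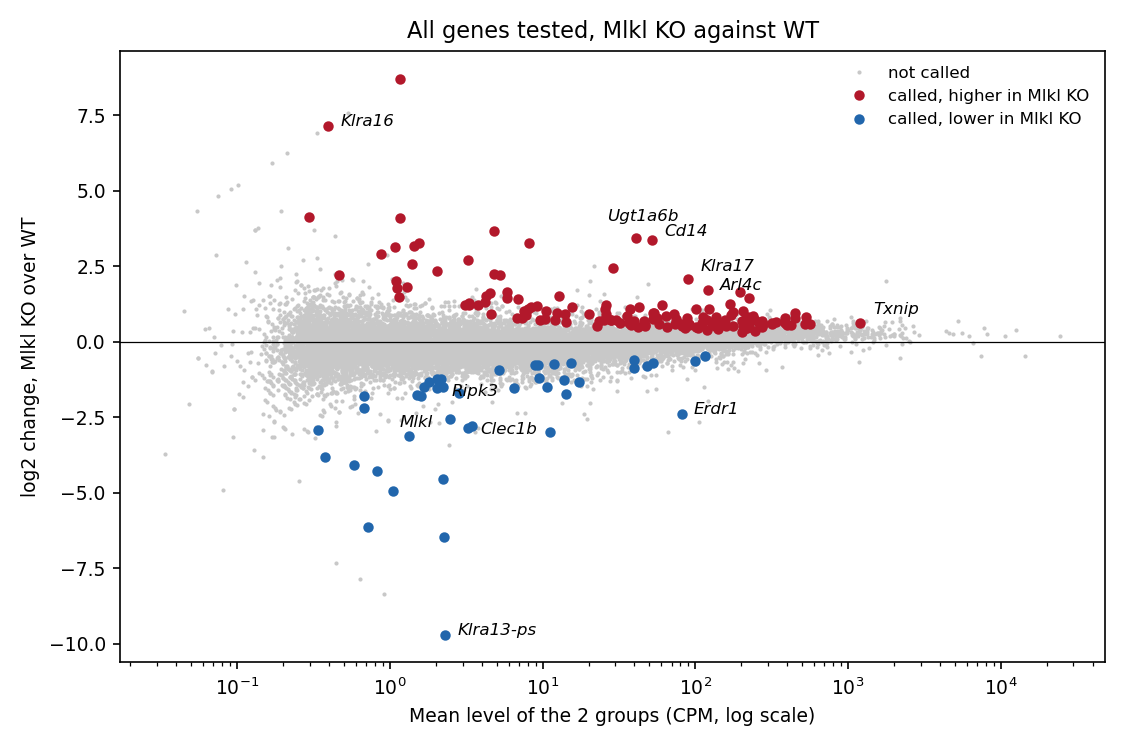
Log2 change of Mlkl KO over WT (y axis) against the mean level of the 2 groups in CPM (x axis, log scale) for all 16206 genes tested; red and blue points are genes called higher and lower in Mlkl KO, grey points are not called. The 145 higher genes reach far up the range of levels, up to Txnip at over 1000 CPM, and the largest decreases sit at low levels, such as Klra13-ps.

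Mlkl itself fell. It was at 0.885, 0.515 and 0.757 CPM in Mlkl KO, against 4.88, 4.31 and 3.52 CPM in WT. Every Mlkl KO library lay well below every WT library, and some signal was left. The log2 change was -2.55 (SE 0.40, edgeR adjusted p = 0.00313), and the call held without any 1 library. The counts are totals per gene and do not separate a deleted part from the rest of the transcript. Mlkl lies on chromosome 8 (chr8:111311797-111338177, GRCm38). None of the 170 other tested genes within 10 Mb of it was called, against 1.16% of all genes. At that share few calls would fall among 170 genes, so their absence says little. Its neighbours Glg1, Rfwd3, Wdr59 and Znrf1 had log2 changes of 0.00, -0.26, 0.05 and 0.29.

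Ripk3, the kinase that activates Mlkl, also fell, while Casp8, Fadd, Ripk1 and Cflar gave no call in the main edgeR fit. Ripk3 was at 4.80, 2.53 and 2.79 CPM in Mlkl KO, against 10.51, 8.63 and 9.96 CPM in WT, with no overlap (log2 change -1.52, SE 0.32, edgeR adjusted p = 0.0229). The call was lost in 5 of the 6 fits without 1 library (edgeR adjusted p 0.0718 to 0.167) and held without Mlkl KO replicate 1. Casp8 was at 29.0, 26.8 and 24.98 CPM in Mlkl KO, against 38.1, 33.9 and 33.8 CPM in WT, and did not pass (log2 change -0.39, edgeR adjusted p = 0.173). The adaptor Fadd had a log2 change of -0.66 (edgeR adjusted p = 0.0776), the kinase Ripk1 of 0.26 and the caspase-8 inhibitor Cflar of 0.30, none of them called in that fit. Fadd was called lower by DESeq2 (log2 change -0.63, DESeq2 adjusted p = 0.0274). It was also called lower by edgeR without Mlkl KO replicate 1 (log2 change -0.79, edgeR adjusted p = 0.0456). Of the 19 genes of the necroptosis and caspase-8 list, all tested, 2 were called lower (Mlkl, the targeted gene, and Ripk3) and 1 higher (Tnfrsf1a), against 0.265% of all genes called lower and 0.895% called higher. The median of the list was 0.07.

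Both receptors for tumour necrosis factor, which feed into this pathway from the cell surface, rose. Tnfrsf1a, which encodes TNFR1, was at 420.5, 479 and 523 CPM in Mlkl KO, against 279, 339 and 300.1 CPM in WT (1.55-fold, log2 change 0.63, SE 0.14, edgeR adjusted p = 0.032). Its call was lost in 5 of the 6 fits without 1 library (edgeR adjusted p 0.0718 to 0.199), Mlkl KO replicate 1 being the exception. Tnfrsf1b, which encodes TNFR2 and was picked after its values were seen, was at 226, 218 and 224 CPM in Mlkl KO, against 121, 118 and 124 CPM in WT. Its libraries were nearly level within each group, and the 1.84-fold difference (log2 change 0.88, SE 0.14, edgeR adjusted p = 0.00416) held without any 1 library. Tnfrsf1b was not high in Mlkl KO alone. It ran from 167 to 233 CPM in the 6 libraries that lacked Ripk3 and kept Mlkl. In the 11 further libraries with Mlkl knocked out it ran from 141 to 251 CPM, so both sets lay above every WT library.

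**Figure D2:**
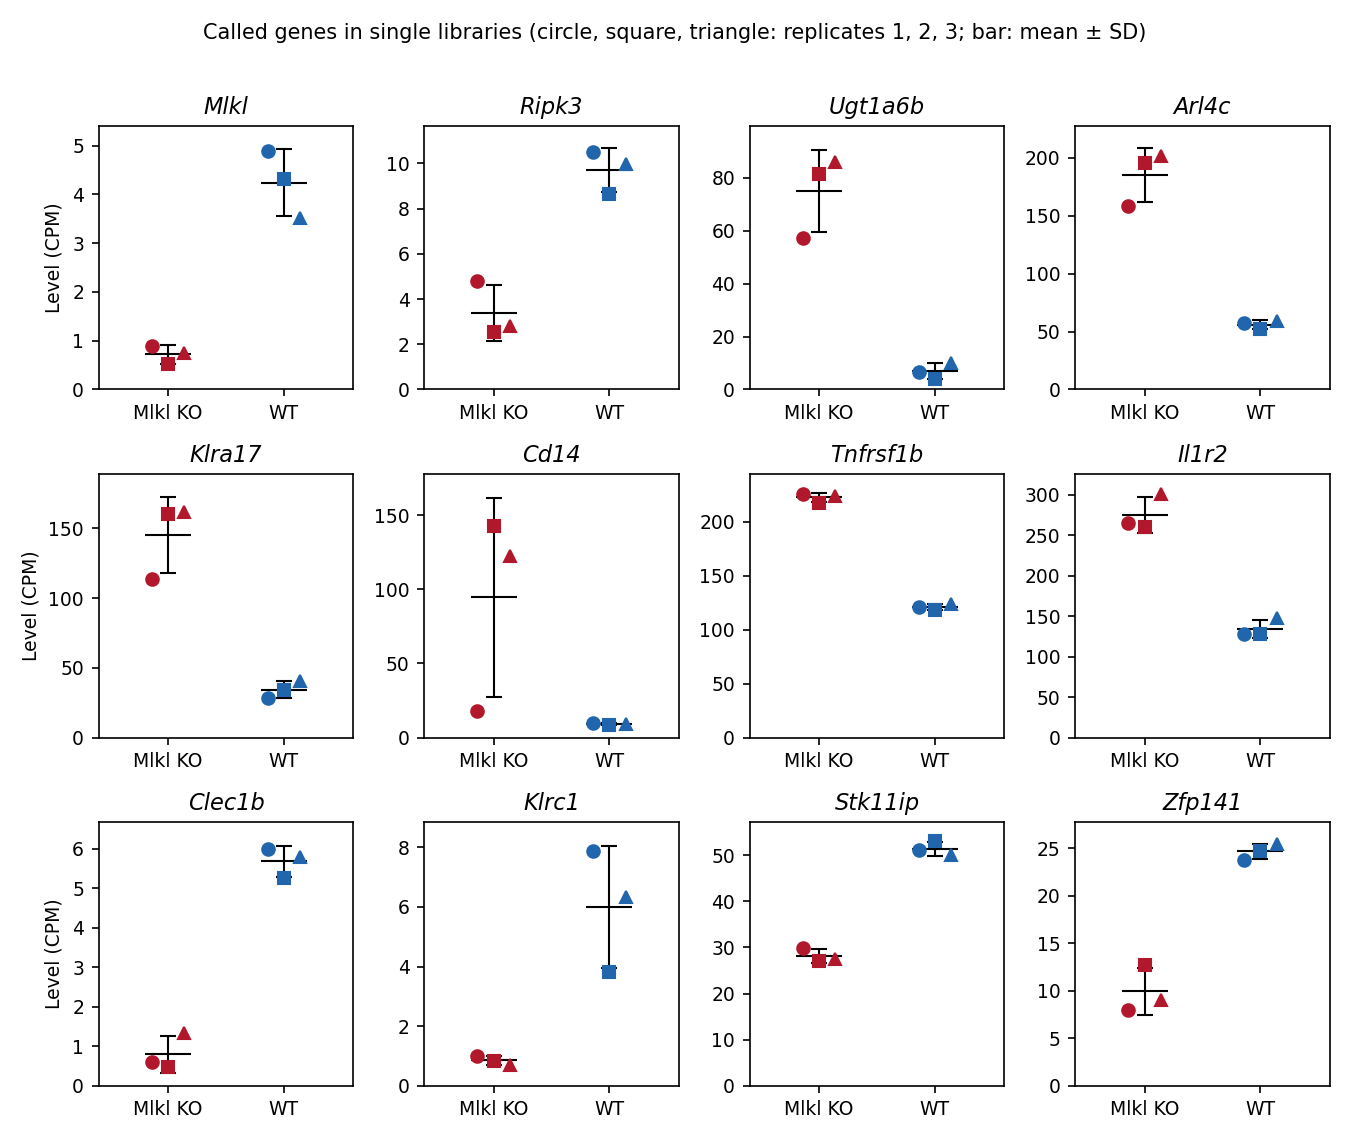
Level in CPM of 12 called genes in each library (y axes start at 0), Mlkl KO in red and WT in blue; symbols mark replicates 1, 2 and 3 and black bars the mean and SD of 3 libraries. The groups do not overlap in any panel, and Cd14 is the gene whose Mlkl KO libraries lie furthest apart, with replicate 1 at 18.0 CPM and the others at 143 and 123 CPM.

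The gene with the smallest p of all those that rose was Ugt1a6b, a UDP-glucuronosyltransferase of the detoxification system. It was at 57.3, 81.6 and 86.1 CPM in Mlkl KO, against 6.49, 3.98 and 10.00 CPM in WT, with a wide gap between the groups (log2 change 3.45, SE 0.27, edgeR adjusted p = 2.35e-06). Its transcripts share 84.2% of their 31-base words with other genes, mostly Ugt1a6a, so its level is uncertain. Ugt1a6a was at 4.09, 8.09 and 8.33 CPM in Mlkl KO, against 2.28, 3.13 and 1.24 CPM in WT, and was also called higher (log2 change 1.62, SE 0.30, edgeR adjusted p = 0.0116), a call that held without Mlkl KO replicate 1 or WT replicate 2 and was lost in the other 4 fits (edgeR adjusted p up to 0.075). Arl4c, a small GTPase that lies nearby on chromosome 1 (chr1:88673125-88702221, GRCm38) and has almost no sequence in common with other genes, was at 158, 196 and 201 CPM in Mlkl KO, against 57.3, 51.8 and 59.1 CPM in WT. That is a 3.30-fold rise (log2 change 1.72, SE 0.17, edgeR adjusted p = 2.27e-05). Agap1, a GTPase-activating protein next to them that was picked after its values were seen, averaged 236 ± 14.9 CPM in Mlkl KO and 118 ± 10.1 CPM in WT (SD, n = 3 each, log2 change 1.00, edgeR adjusted p = 0.00515). In the 10 Mb from 80 to 90 Mb of chromosome 1, 5 of 70 tested genes were called, all 5 of them higher. Over all genes 1.16% were called and 0.895% were called higher, and this stretch was looked at because of its calls. Ugt1a6a lies within the span of Ugt1a6b, and a predicted gene among the 5 lies within that of Agap1. The 5 calls are thus not 5 separate places. The calls of Ugt1a6b, Arl4c and Agap1 held without any 1 library.

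Among the other large rises were Hebp1, Klra17, Fam234b, Tsc22d3 and Pira1. Hebp1, which encodes a haem-binding protein, was at 7.92, 8.75 and 9.37 CPM in Mlkl KO, against 1.53, 1.48 and 2.52 CPM in WT (log2 change 2.23, SE 0.25, edgeR adjusted p = 0.000127). Klra17, which encodes the inhibitory receptor Ly49Q found on myeloid cells, was at 114, 160.3 and 162 CPM in Mlkl KO, against 28.4, 34.0 and 40.8 CPM in WT (log2 change 2.08, SE 0.19, edgeR adjusted p = 1.31e-05). In both the lowest Mlkl KO library exceeded the highest WT library by more than 2-fold. Fam234b, which overlaps the end of Hebp1 on the opposite strand, averaged 19.1 ± 2.75 CPM in Mlkl KO and 6.63 ± 1.57 CPM in WT (SD, n = 3 each). These 3 calls held without any 1 library.

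Tsc22d3, which encodes the glucocorticoid-induced leucine zipper, was at 302, 215 and 382 CPM in Mlkl KO, against 85.1, 93.6 and 105 CPM in WT (log2 change 1.66, SE 0.36, edgeR adjusted p = 0.0255). The activating receptor gene Pira1 was at 226, 430.2 and 339 CPM in Mlkl KO, against 109.8, 136 and 117 CPM in WT (log2 change 1.46, SE 0.33, edgeR adjusted p = 0.0336). The Mlkl KO libraries were spread widely for both, and the calls held without Mlkl KO replicate 1, for Tsc22d3 also without Mlkl KO replicate 2, and were lost in the other fits (edgeR adjusted p up to 0.172 and 0.191). Laptm4b, a lysosomal membrane protein gene with the largest log2 change of the genes named for their rise (3.67, SE 0.84, edgeR adjusted p = 0.035), was at 11.04, 1.26 and 14.6 CPM in Mlkl KO, against 0.866, 0.423 and 0.800 CPM in WT. Its replicate 2 of Mlkl KO stood close to WT, and its call held without Mlkl KO replicate 1 or 2 and was lost in the other 4 fits (edgeR adjusted p up to 0.19).

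The remaining rises named by size were smaller or at low levels. Irgc1, Zfp658, Cd300ld3 and Retn, which encodes resistin, averaged 5.62, 6.28, 10.03 and 6.01 CPM in Mlkl KO, against 0.855, 2.20, 3.70 and 2.38 CPM in WT, and each call held without Mlkl KO replicate 1 and was lost in 4 or 5 of the 6 fits (edgeR adjusted p up to 0.228). Eif3j2 averaged 7.99 ± 0.272 CPM in Mlkl KO and 1.68 ± 0.312 CPM in WT (SD, n = 3 each, edgeR adjusted p = 0.0301), a call that held only without Mlkl KO replicate 1 among those fits. It shares 94.9% of its words with other genes, mostly Eif3j1, another copy of the gene for a subunit of translation initiation factor 3. Eif3j1 averaged 7.95 ± 1.24 CPM in Mlkl KO and 15.1 ± 1.37 CPM in WT (SD, n = 3 each, edgeR adjusted p = 0.645), so the division of reads between the copies is uncertain.

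Among the 13 lower genes whose calls held without any 1 library, Stk11ip and Zfp141 were the 2 with a mean above 20 CPM in WT. Stk11ip, which encodes a partner of the kinase LKB1, was at 29.9, 27.0 and 27.4 CPM in Mlkl KO, against 51.2, 53.1 and 50.04 CPM in WT. The libraries of each group were nearly level (log2 change -0.87, SE 0.12, edgeR adjusted p = 0.000682). The zinc finger gene Zfp141 was at 8.01, 12.7 and 8.99 CPM in Mlkl KO, against 23.8, 24.7 and 25.4 CPM in WT (log2 change -1.31, SE 0.22, edgeR adjusted p = 0.0066). It shares 25.1% of its words with other genes.

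Erdr1 and Mid1, neighbours at the end of the X chromosome, fell together. Erdr1 was at 35.5, 27.0 and 16.1 CPM in Mlkl KO, against 165, 108 and 137 CPM in WT (log2 change -2.38, SE 0.49, edgeR adjusted p = 0.0213). Mid1, a ubiquitin ligase gene, was at 7.67, 6.32 and 5.91 CPM in Mlkl KO, against 25.4, 17.0 and 22.9 CPM in WT (log2 change -1.71, SE 0.36, edgeR adjusted p = 0.0213). Neither call held in more than 1 of the 6 fits without 1 library, that without Mlkl KO replicate 1 (edgeR adjusted p up to 0.167 for Erdr1 and 0.148 for Mid1). Bcat2, the mitochondrial branched-chain aminotransferase, averaged 5.59 ± 0.915 CPM in Mlkl KO and 15.7 ± 2.08 CPM in WT (SD, n = 3 each, edgeR adjusted p = 0.00992), and its call was lost without WT replicate 1 or Mlkl KO replicate 3 (edgeR adjusted p 0.0696 to 0.0718). Nav2, Smtn, Gpatch1, Cracr2a, Far2, Mrpl44 and Tmem209 fell by 0.70 to 1.28 on the log2 scale. Each of these 7 calls was lost in 3 to 5 of the 6 fits (edgeR adjusted p up to 0.226); all but that of Nav2 held without Mlkl KO replicate 1.

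The 7 largest falls by log2 change lay among receptor genes of the natural killer complex on distal chromosome 6, a cluster of lectin-like receptors that natural killer cells and some myeloid cells use to read other cells. Klrc1, which encodes NKG2A, was at 1.01, 0.842 and 0.710 CPM in Mlkl KO, against 7.87, 3.81 and 6.32 CPM in WT (log2 change -2.80, SE 0.35, edgeR adjusted p = 0.000405). Clec1b, which encodes the platelet and myeloid receptor CLEC-2, was at 0.590, 0.468 and 1.32 CPM in Mlkl KO, against 5.98, 5.25 and 5.80 CPM in WT (log2 change -2.83, SE 0.40, edgeR adjusted p = 0.00108). Clec9a, its neighbour and a receptor of cross-presenting dendritic cells, was at 0.379, 0.187 and 0.237 CPM in Mlkl KO, against 2.95, 1.86 and 2.36 CPM in WT (edgeR adjusted p = 0.00428). In each of the 3 the groups were far apart at low levels, and the calls held without any 1 library.

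Several genes of the cluster were close to absent on 1 side. Klra13-ps had 0 counts over the Mlkl KO libraries and 342 over the WT libraries, at least 102-fold lower when 3 counts over the group are taken as the floor (edgeR adjusted p = 0.00463). Klri2 was at 0.0421, 0.0936 and 0 CPM in Mlkl KO, against 5.27, 3.13 and 5.08 CPM in WT, which is 3 counts in all against 335 (edgeR adjusted p = 2.27e-05). Klra8 was at 0.126, 0.187 and 0.237 CPM in Mlkl KO, against 5.71, 2.96 and 4.24 CPM in WT (edgeR adjusted p = 0.000203). Klra16, a member of the same family with no position in the annotation used here, went the other way, with 52 counts over the Mlkl KO libraries and 0 over the WT libraries, at least 19.4-fold higher at the same floor (edgeR adjusted p = 0.000682). Klrc2, Klrb1b, Klra14-ps, Klra3 and Klra7 were called lower as well, the last 2 with calls lost in 3 and 5 of the 6 fits, not in that without Mlkl KO replicate 1 (edgeR adjusted p up to 0.0677 and 0.249). Many of these genes are near copies of each other. Klra8, Klrc1 and Klra14-ps share 55.0%, 53.1% and 45.4% of their words with other genes and are uncertain for that reason, while Klri2, Clec9a and Clec1b share 7.62%, 4.63% and 3.64%.

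The calls were more frequent on chromosome 6 than elsewhere. There 33 of 790 tested genes were called (4.18%), 15 higher and 18 lower, against 148 of 14748 genes with a position on the other chromosomes (1.00%). They were densest between 130 and 140 Mb, where 12 of 50 tested genes were called, and between 120 and 130 Mb, where 13 of 137 were. Of the 29 genes that were called in each of the 6 fits without 1 library, 14 lay in these 20 Mb. Ptpn6 lies in this stretch (chr6:124720707-124738714, GRCm38), and 19 of the 200 other tested genes within 10 Mb of it were called, 7 higher and 12 lower. Ptpn6 itself was at 493, 711 and 649 CPM in Mlkl KO, against 574, 616 and 608 CPM in WT, and did not differ detectably (log2 change 0.04, SE 0.15, edgeR adjusted p = 0.896). Besides Klra17, Tnfrsf1a and Clec4d, the higher genes near it were Acrbp, Apobec1, Fam21 and Grcc10, at 1.43-fold to 1.65-fold. Of these 4, Acrbp lost its call without WT replicate 1 (edgeR adjusted p = 0.0671), and the others were called in 1 or 2 of the 6 fits, that without Mlkl KO replicate 1 among them.

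**Figure D3:**
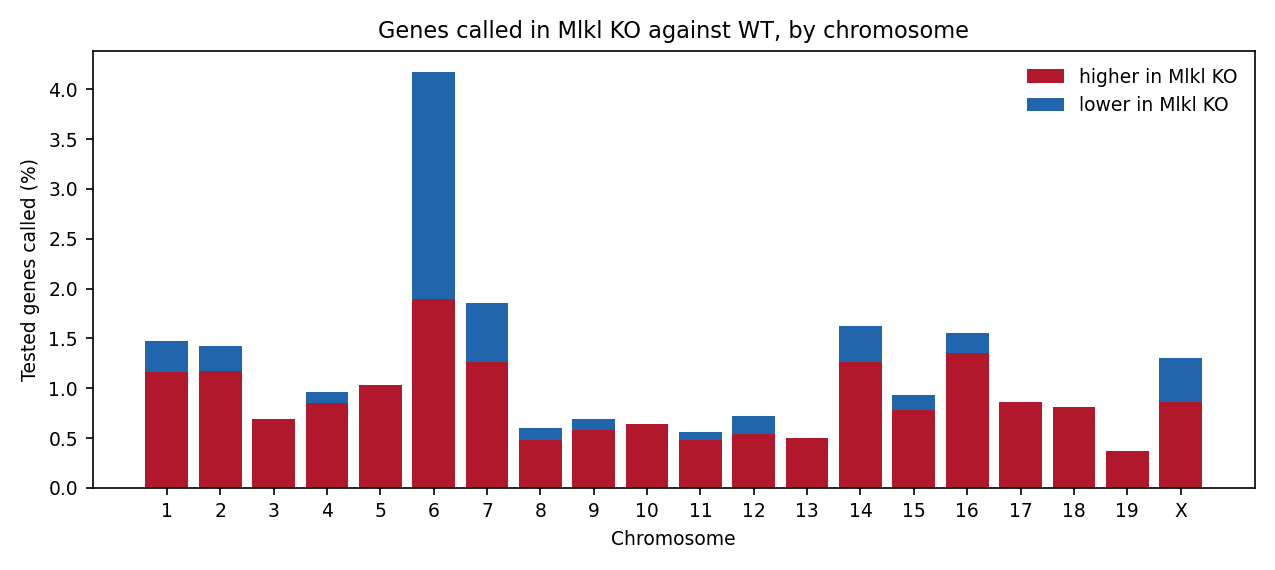
Percentage of tested genes called in Mlkl KO against WT on each chromosome (bars start at 0), split into genes called higher (red) and lower (blue) in Mlkl KO. Chromosome 6 reaches 4.18% and is the chromosome with the largest share of lower genes, while chromosome 8, which carries Mlkl, is at 0.603%.

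Cd14, the co-receptor that hands lipopolysaccharide to Tlr4, rose steeply in part of the Mlkl KO libraries. It was at 18.0, 143 and 123 CPM in Mlkl KO, against 9.84, 8.25 and 9.44 CPM in WT. Replicate 1 of Mlkl KO stood at about 2 times the WT level and the other libraries far above it, so the mean of 94.5 ± 67.0 CPM in Mlkl KO against 9.18 ± 0.827 CPM in WT (SD, n = 3 each) rests on replicates 2 and 3. The log2 change was 3.36 (SE 0.65, edgeR adjusted p = 0.0163). It was called without Mlkl KO replicate 1 (log2 change 3.85, edgeR adjusted p = 0.00229) and lost in the other 5 fits without 1 library (edgeR adjusted p 0.0621 to 0.104).

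Tlr6 and Tlr8, receptors for bacterial lipopeptides and for RNA, were called higher with it. Tlr6 was at 55.5, 65.6 and 84.7 CPM in Mlkl KO, against 38.0, 39.2 and 40.1 CPM in WT (edgeR adjusted p = 0.0425), and Tlr8 averaged 150.4 ± 25.2 CPM in Mlkl KO and 89.9 ± 5.79 CPM in WT (SD, n = 3 each, edgeR adjusted p = 0.0352). Of the 20 genes of the Toll-like receptor list, all tested, these 3 were called higher, against 0.895% of all genes, and none lower, 15 lay above 0, and the median log2 change was 0.31. Tlr4 had a log2 change of 0.65 and the adaptor Myd88 of 0.49, neither called. The list had 4 called members without Mlkl KO replicate 1, where 2.11% of all genes were called higher, and 0 in the other fits without 1 library. DESeq2 called 4 and an edgeR fit of only the 6 libraries called 6, where 3.65% and 3.63% of all genes were called higher. Among 25 tested NF-kB targets and inflammatory cytokines, Cd14 was the 1 gene called by edgeR (median log2 change 0.20). DESeq2 called 2 higher and 1 lower, against 3.65% and 1.22% of all genes. The 6-library fit called 4 higher and 2 lower, against 3.63% and 2.43% of all genes. The chemokine genes Cxcl2 and Ccl3 averaged 2.53 and 7.74 CPM in Mlkl KO, against 7.65 and 17.7 CPM in WT, and the cytokine gene Il1b 418 CPM in Mlkl KO against 202 CPM in WT, none of them called (edgeR adjusted p = 0.341, 0.0677 and 0.182).

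Genes of mitosis were at lower values in Mlkl KO with 1 exception, although edgeR called none of them over all genes. Of 22 tested, 21 had a log2 change below 0 and each of those 21 had an unadjusted p under 0.05, with a median log2 change of -1.20, against -0.03 for all genes. The median list member was thus at less than 0.5 of its WT level. The 1 gene above 0 was Kif23 (log2 change 0.07). Mean levels of the list were 4.53, 3.75 and 3.36 log2 CPM in Mlkl KO, against 5.12, 5.04 and 4.99 log2 CPM in WT, without overlap, and Mlkl KO replicate 1 lay nearest to WT. Plk1, the polo-like kinase, was at 17.8, 11.2 and 6.77 CPM in Mlkl KO, against 31.01, 31.5 and 26.6 CPM in WT (log2 change -1.31, SE 0.38, edgeR adjusted p = 0.0842). Without Mlkl KO replicate 1, edgeR called 12 of the 22 lower, where 1.54% of all genes were called lower, and it called none without any other library. DESeq2 called 10 lower, against 1.22% of all genes, and a fit of only the 6 libraries called 18, against 2.43%. In bulk RNA, fewer cells of a type and less RNA per cell cannot be told apart.

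Promoters of the mitosis genes are shown because 21 of the 22 members lay on the same side of 0 and because such promoters are known for a shared pair of elements, the cell cycle genes homology region (TTTGAA) and the CCAAT box. Of the 22 genes, 18 had a RefSeq promoter (GRCm38.p6, 250 bases before to 50 bases after the gene's start), and 12 of these (66.7%) held both TTTGAA and CCAAT on either strand. The 2 strings can share an end letter. Both were present in 6.4% of 11754 tested genes with a promoter and in 7.97% of all 27025 promoters. Of 18 DNA replication genes 3 (16.7%) held both, and of the promoters of the azurophil, gelatinase granule and mature receptor lists none did. A match is a string of letters and not a measured site. The promoters of Plk1 (chr7:122159185-122159484, plus strand), the cyclin gene Ccnb2 (chr9:70421505-70421804, minus strand) and the cyclin-dependent kinase gene Cdk1 (chr10:69352863-69353162, minus strand) follow, 5′ to 3′, with each TTTGAA and CCAAT, or its reverse complement, in capitals.
Plk1: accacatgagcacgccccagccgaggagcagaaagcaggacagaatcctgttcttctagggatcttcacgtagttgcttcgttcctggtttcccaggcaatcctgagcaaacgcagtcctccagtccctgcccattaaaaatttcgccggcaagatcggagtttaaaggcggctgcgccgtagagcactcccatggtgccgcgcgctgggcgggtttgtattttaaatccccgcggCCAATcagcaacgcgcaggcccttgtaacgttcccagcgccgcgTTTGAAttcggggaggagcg
Ccnb2: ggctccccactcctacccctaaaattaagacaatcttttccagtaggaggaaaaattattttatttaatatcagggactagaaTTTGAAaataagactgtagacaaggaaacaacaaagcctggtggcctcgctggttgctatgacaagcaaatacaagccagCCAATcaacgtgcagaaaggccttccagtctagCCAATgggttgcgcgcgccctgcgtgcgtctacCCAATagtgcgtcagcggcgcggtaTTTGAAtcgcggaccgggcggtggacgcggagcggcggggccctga
Cdk1: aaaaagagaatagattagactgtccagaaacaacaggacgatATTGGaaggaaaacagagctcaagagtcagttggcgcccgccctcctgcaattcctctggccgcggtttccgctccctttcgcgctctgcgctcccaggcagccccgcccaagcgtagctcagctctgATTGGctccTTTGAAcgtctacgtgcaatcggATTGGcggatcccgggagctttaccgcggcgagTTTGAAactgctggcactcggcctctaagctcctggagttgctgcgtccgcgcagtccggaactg
Ccnb2 averaged 11.6 CPM in Mlkl KO and 27.6 CPM in WT, and Cdk1 9.02 CPM in Mlkl KO and 19.8 CPM in WT, with log2 changes of -1.24 and -1.13 that did not pass (edgeR adjusted p = 0.0717 and 0.156).

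DNA replication genes also lay below 0, with a median nearer to 0. All 22 had a log2 change below 0 (median -0.79), 7 had an unadjusted p under 0.05 and neither edgeR nor DESeq2 called any. Their mean level was 3.62, 2.97 and 2.64 log2 CPM in Mlkl KO, against 4.03, 3.70 and 3.79 log2 CPM in WT, with Mlkl KO replicate 1 just under the lowest WT library. The replicative helicase gene Mcm5 was at 20.5, 10.7 and 8.19 CPM in Mlkl KO, against 33.0, 27.6 and 24.2 CPM in WT (edgeR adjusted p = 0.182). A fit of only the 6 libraries called 4 of the list lower, where 2.43% of all genes were called lower.

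Granule genes were divided by the stage at which they are made. Azurophil granule genes, the earliest, had 11 of 13 members below 0 (median log2 change -0.40). None was called by edgeR, and 7 had an unadjusted p under 0.05. Without Mlkl KO replicate 1, 4 were called lower, where 1.54% of all genes were called lower. DESeq2 and the 6-library fit called 1 lower each, against 1.22% and 2.43% of all genes. Elane, which encodes neutrophil elastase, was at 14.1, 1.497 and 1.37 CPM in Mlkl KO, against 43.9, 29.1 and 28.2 CPM in WT (log2 change -2.56, SE 0.83, edgeR adjusted p = 0.121). Mpo, which encodes myeloperoxidase, was at 114, 24.8 and 10.1 CPM in Mlkl KO, against 241, 186 and 155 CPM in WT (log2 change -1.96, SE 0.74, edgeR adjusted p = 0.172). For both genes Mlkl KO replicate 1 lay between the other Mlkl KO libraries and WT. Prtn3 followed the same order, while the lysosomal genes Ctsc and Cd63 had log2 changes of -0.11 and -0.05.

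Specific granule genes, made next, had a median log2 change of -0.04 over the 16 tested of 18, with 9 below 0, 3 at an unadjusted p under 0.05 and none called by edgeR or DESeq2. Camp, the cathelicidin gene, averaged 1781 ± 494 CPM in Mlkl KO and 2597 ± 185 CPM in WT, and Hp, which encodes haptoglobin, 1849 ± 324 CPM in Mlkl KO and 1324 ± 103 CPM in WT (SD, n = 3 each). Genes of the gelatinase granule and late maturation had 15 of 16 members above 0 (median log2 change 0.33). Of these, edgeR called 1 higher, DESeq2 2 and the 6-library fit 3, where 0.895%, 3.65% and 3.63% of all genes were called higher. The 1 called by edgeR was Il1r2, the decoy receptor for interleukin-1, at 265, 260.3 and 301 CPM in Mlkl KO, against 128, 128 and 148 CPM in WT (2.05-fold, SE of log2 change 0.21, edgeR adjusted p = 0.0213). Its groups were far apart relative to their spread, and the call was lost in 5 of the 6 fits without 1 library (edgeR adjusted p 0.0559 to 0.143), Mlkl KO replicate 1 again being the exception. The cell cycle repressor Mxd1 was at 2658, 2613 and 2792 CPM in Mlkl KO, against 1507, 1781 and 1724 CPM in WT (edgeR adjusted p = 0.0972), and the gelatinase gene Mmp9 had a log2 change of 0.25.

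Surface receptors of mature neutrophils had 21 of 24 members above 0 (median log2 change 0.45), and 3 were called higher, against 0.895% of all genes. Trem1, an amplifier of inflammatory signals, was at 257, 283 and 286 CPM in Mlkl KO, against 144, 166 and 163 CPM in WT (edgeR adjusted p = 0.048). The C-type lectin receptor gene Clec4d was at 513, 678 and 587 CPM in Mlkl KO, against 268, 288 and 358 CPM in WT (edgeR adjusted p = 0.0367). Ptafr, the receptor for platelet-activating factor, averaged 248 ± 36.3 CPM in Mlkl KO and 154 ± 11.2 CPM in WT (SD, n = 3 each, edgeR adjusted p = 0.0291). The groups did not overlap for any of the 3. Cxcr2, the receptor for neutrophil chemokines, and Csf3r, the receptor for granulocyte colony-stimulating factor, averaged 2784 and 6529.7 CPM in Mlkl KO, against 1626 and 4046 CPM in WT, and did not pass (edgeR adjusted p = 0.0988 and 0.0834). The list had 6 members called higher without Mlkl KO replicate 1, 0 in the other fits without 1 library, 8 by DESeq2 and 6 in the 6-library fit. Without Mlkl KO replicate 1, by DESeq2 and in the 6-library fit, 2.11%, 3.65% and 3.63% of all genes were called higher.

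**Figure D4:**
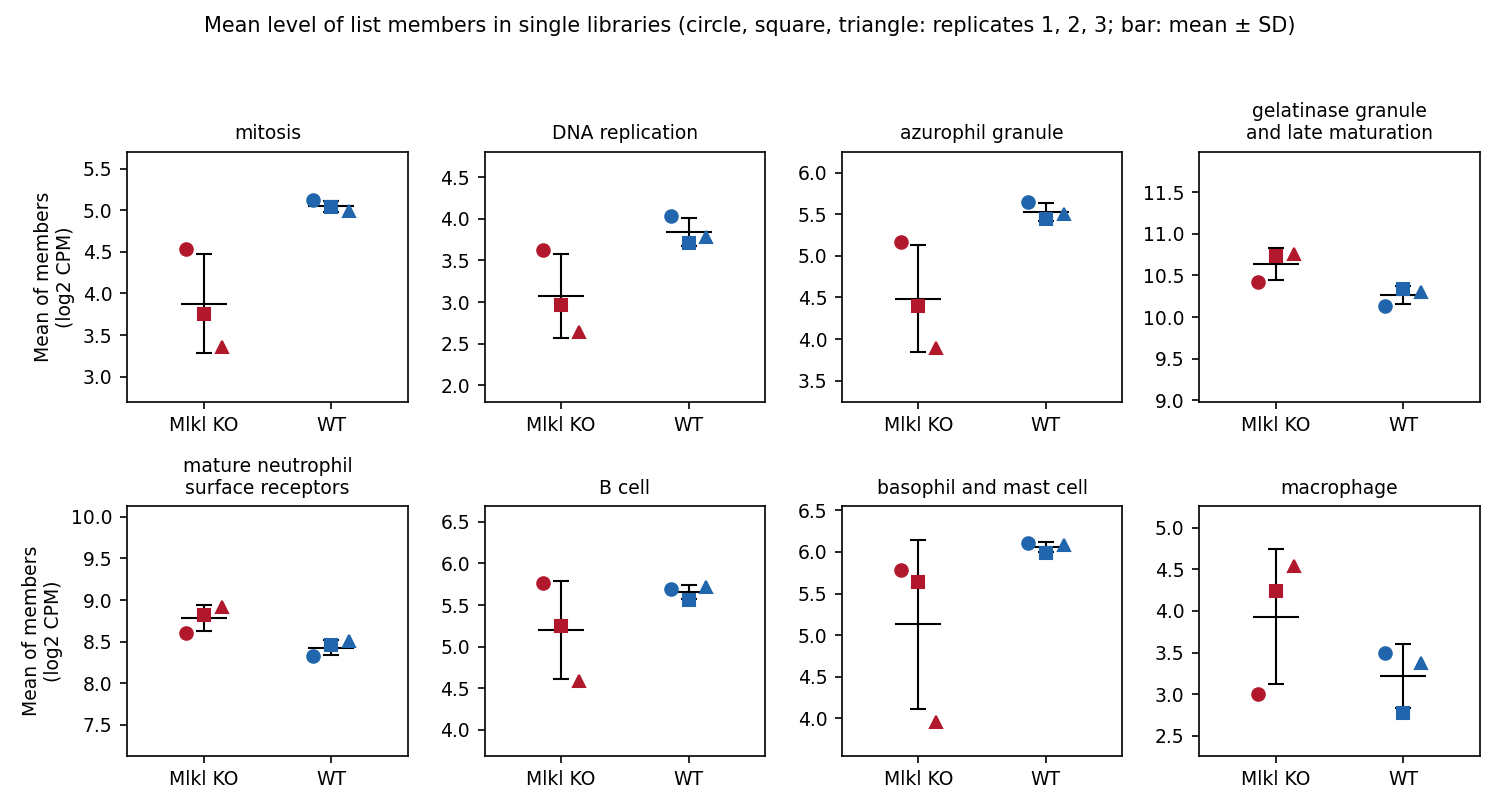
Mean of the log2 CPM of the tested members of 8 lists in each library, Mlkl KO in red and WT in blue; symbols mark replicates 1, 2 and 3, black bars show the mean and SD of 3 libraries, and each y axis spans the same number of log2 units. Mitosis, DNA replication and azurophil granule means run lower and late maturation and receptor means higher in Mlkl KO, with Mlkl KO replicate 1 nearest to WT, whereas B cell and macrophage means overlap between the groups.

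The other pathway lists held 1 gene called by edgeR. Interferon-response genes had a median log2 change of 0.18 over 28 genes, with 1 at an unadjusted p under 0.05 and none called by edgeR or DESeq2. Inflammasome and pyroptosis genes (median 0.17 over 16), immediate early genes (0.19 over 18), glycolysis and hypoxia genes (0.20 over 24) and NADPH oxidase subunits (0.23 over 8) had no member called by edgeR. At an unadjusted p under 0.05 they had 4, 4, 6 and 3 members, beside 3145 of all 16206 genes. DESeq2 called 2 inflammasome genes (Nlrp3 and Mefv), 2 immediate early genes (Atf3 and Klf6) and 2 glycolysis and hypoxia genes (Slc2a1 and Bnip3), all higher, and the 6-library fit called 4, 4 and 3. Neither called an NADPH oxidase gene. Over all genes DESeq2 called 3.65% higher and 1.22% lower, and the 6-library fit 3.63% higher and 2.43% lower. Granulopoiesis transcription factors had a median of -0.01 over 14, with 6 at an unadjusted p under 0.05 and none called by edgeR, while DESeq2 called Cebpb, Cebpd and Rara higher and Gfi1 lower and the 6-library fit called 3 higher and 1 lower. Within that list Gfi1, a repressor needed for granulopoiesis, was at 10.1, 7.77 and 7.00 CPM in Mlkl KO, against 15.9, 13.9 and 14.4 CPM in WT (edgeR adjusted p = 0.0599), and Cebpb, which drives emergency granulopoiesis, averaged 247 ± 27.4 CPM in Mlkl KO and 129 ± 29.3 CPM in WT (SD, n = 3 each, edgeR adjusted p = 0.12). Among 14 tested BCL2 family genes, Bcl2l11, which encodes the death-promoting protein BIM, was the 1 called by edgeR, at 42.3, 43.6 and 48.0 CPM in Mlkl KO, against 27.2, 27.9 and 31.8 CPM in WT (1.54-fold, edgeR adjusted p = 0.03). Its call was lost in 5 of the 6 fits without 1 library (edgeR adjusted p 0.065 to 0.187).

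**Figure D5:**
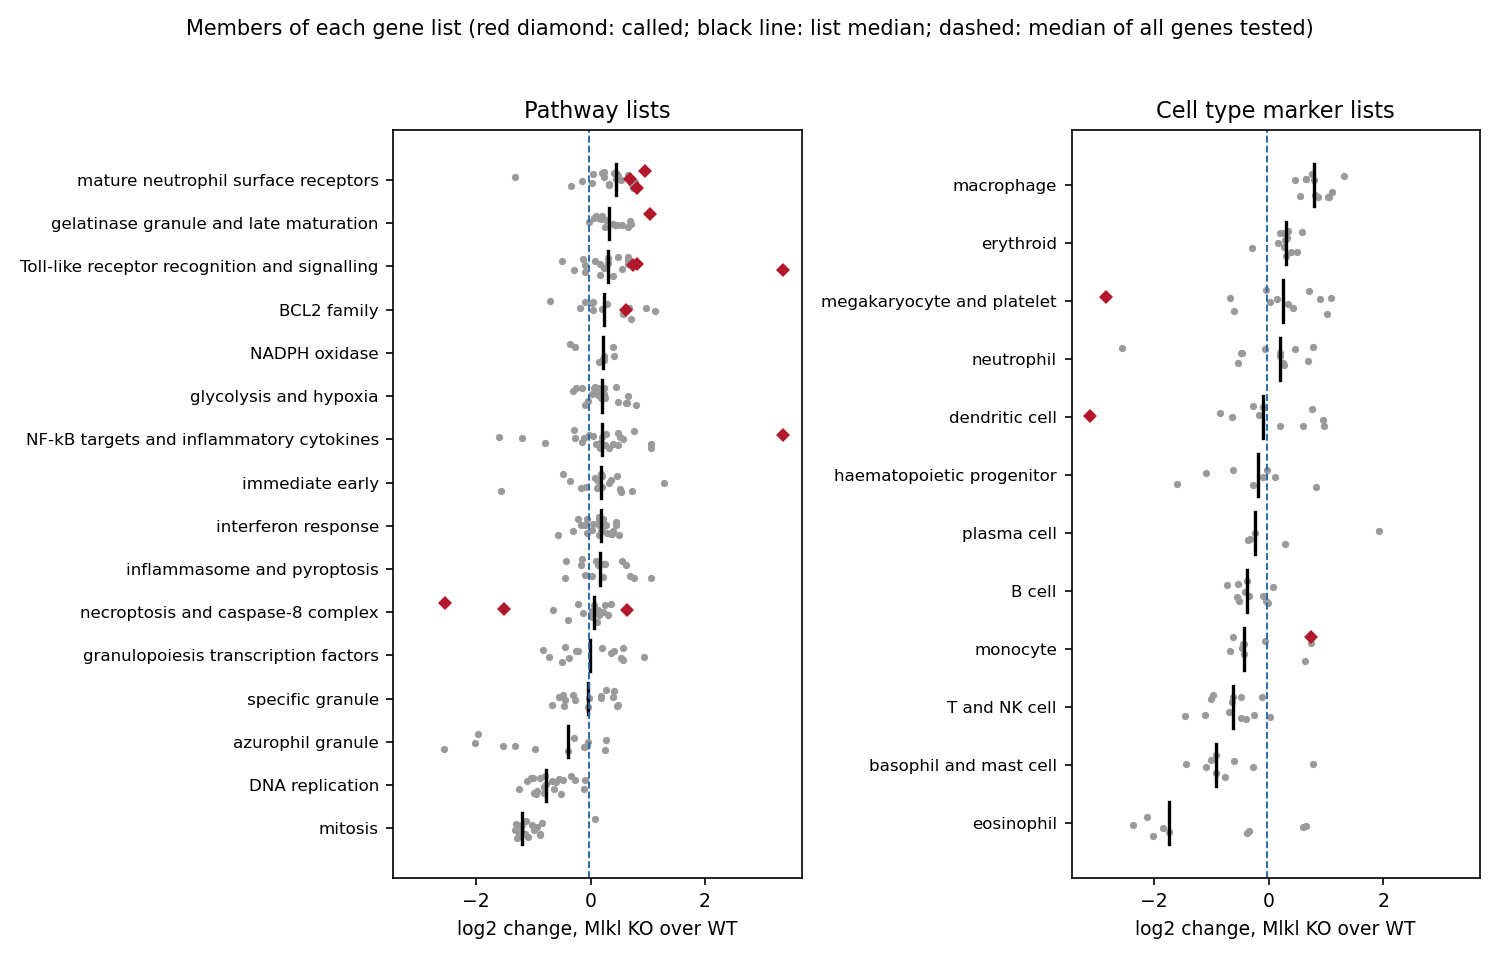
Log2 change of Mlkl KO over WT (x axis) of each tested member of 16 pathway lists (left) and 12 cell type marker lists (right), with called members as red diamonds, list medians as black lines and the median of all genes tested as a dashed line. Mitosis genes cluster around a median of -1.20 with no called member, and the called genes are in lists whose medians run from -0.44 to 0.45.

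The preparations held the defining genes of neutrophils at high levels, and markers of other cells were present in both groups. S100a9 and S100a8 averaged 26082 and 11398 CPM in Mlkl KO, against 22885 and 9974 CPM in WT, and the 12 neutrophil markers had a median log2 change of 0.19 of which edgeR called none and DESeq2 2, with 3 at an unadjusted p under 0.05. The summed level of the B cell markers ran from 620.2 to 982 CPM in Mlkl KO and from 983 to 1091 CPM in WT, with 10 of the 11 tested below 0 (median log2 change -0.38). Basophil and mast cell markers summed to 1021 to 1612 CPM in Mlkl KO and 1291 to 1369.8 CPM in WT, and 8 of 9 lay below 0 (median -0.92). Among them Gata2 was at 48.3, 44.6 and 12.4 CPM in Mlkl KO, against 75.9, 78.1 and 70.4 CPM in WT. T and NK cell markers had 12 of 13 below 0 (median -0.62), summing to 75.7 to 117 CPM in Mlkl KO and 116 to 191 CPM in WT. Eosinophil markers summed to 59.1 to 82.9 CPM in Mlkl KO and 89.1 to 107 CPM in WT, with 7 of 9 below 0 (median -1.74). No marker gene in the table was at 0 in all 6 libraries, and the main edgeR fit called no member of these 4 lists of other cells. At an unadjusted p under 0.05 there were 0 B cell, 5 basophil and mast cell, 4 T and NK cell and 3 eosinophil markers, beside 3145 of all 16206 genes. DESeq2 called the T and NK cell markers Cd8a, Klrb1c and Nkg7 lower, Gata2 lower and the basophil marker Hdc higher. The 6-library fit called the eosinophil markers Epx, Prg2, Ear1 and Ear6 lower and Siglecf higher, Klrb1c and the B cell marker Pax5 lower, and Hdc higher. Over all genes DESeq2 called 3.65% higher and 1.22% lower, and the 6-library fit 3.63% higher and 2.43% lower. Plasma cell markers (median -0.24 over 5) and progenitor markers (-0.19 over 8) had no call in the main edgeR fit. There, dendritic cell markers (-0.10 over 11) held Clec9a and megakaryocyte markers (0.24 over 12) held Clec1b as called members, both lower. The 6-library fit called the plasma cell marker Jchain higher (log2 change 1.93). Among dendritic cell markers it called H2-Aa, H2-Ab1, H2-Eb1 and Cd74 higher and Clec9a lower. Dendritic cell markers summed to 275 to 403 CPM in Mlkl KO and 205 to 251 CPM in WT. Their mean level overlapped, at 1.63 to 2.39 log2 CPM in Mlkl KO and 1.92 to 2.31 log2 CPM in WT.

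Macrophage markers went the other way in Mlkl KO replicates 2 and 3. All 12 lay above 0 (median log2 change 0.80), and 4 had an unadjusted p under 0.05, beside 3145 of all 16206 genes. The main edgeR fit called none. DESeq2 and the 6-library fit each called 1 higher, against 3.65% and 3.63% of all genes. The mean level of these markers was 3.01, 4.24 and 4.54 log2 CPM in Mlkl KO, against 3.497, 2.78 and 3.37 log2 CPM in WT, so Mlkl KO replicate 1 overlapped WT. The complement gene C1qb was at 6.28, 17.2 and 22.5 CPM in Mlkl KO, against 9.05, 4.95 and 8.16 CPM in WT. These are the libraries in which Cd14 was highest, and the part of macrophage RNA in the Cd14 result was not tested. Csf1r, the receptor for macrophage colony-stimulating factor, was the 1 called monocyte marker, at 241, 326 and 352 CPM in Mlkl KO, against 179.9, 197 and 174 CPM in WT (1.67-fold, edgeR adjusted p = 0.0166). Its call was lost in 5 of the 6 fits and held without Mlkl KO replicate 1 (edgeR adjusted p up to 0.128 where lost), while 7 of the 10 monocyte markers lay below 0 (median -0.44). Mlkl KO replicate 3 was lowest both for mitosis and azurophil genes and for the mean levels of B cell, T and NK cell, basophil and eosinophil markers. For B cells these were 5.77, 5.25 and 4.59 log2 CPM in Mlkl KO, against 5.69, 5.56 and 5.72 log2 CPM in WT, and their part in the mitosis and azurophil values was not tested. The Klr and Clec falls came with lower T and NK cell markers, of which Klrb1c and Cd8a were at 3.65 and 4.63 CPM in Mlkl KO, against 10.1 and 10.0 CPM in WT (edgeR adjusted p = 0.0618 and 0.0865), and that part was not tested.

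To see what set Mlkl KO apart from the most similar lines, it was tested directly against Ripk3 KO (3 libraries) and against Ripk3 KO Mlkl KO (2 libraries). In each test 1 gene of 16206 was called (0.00617%), and it was Ripk3, higher in Mlkl KO with log2 differences of 7.43 and 6.08 (edgeR adjusted p = 5.43e-06 and 0.000246). At an unadjusted p under 0.05 there were 814 and 508 genes. DESeq2 called 2 and 3, and 17 were called against Ripk3 KO Mlkl KO without its replicate 3. Cd14 averaged 94.5 CPM in Mlkl KO, against 16.9 CPM in Ripk3 KO and 15.4 CPM in Ripk3 KO Mlkl KO, and the log2 differences of 2.49 (SE 0.62) and 2.62 (SE 0.74) did not pass (edgeR adjusted p = 0.702 and 1). Cd14 was not high in Mlkl KO alone. It ran from 12.1 to 65.7 CPM in the 6 libraries that lacked Ripk3 and kept Mlkl. In the 11 further libraries with Mlkl knocked out it ran from 14.1 to 258.8 CPM. Both sets lay above the highest WT library, at 9.84 CPM. Il1r2 differed by 0.34 (SE 0.21) and 0.03 (SE 0.24), and Plk1 by -0.75 (SE 0.37) and -0.31 (SE 0.42), on the log2 scale. A p that misses the threshold does not show that the lines were alike.

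For the genes called most firmly, levels in the rest of the series are set alongside, and since every such comparison shares the WT libraries they are given as values only. In the 6 libraries that lacked Ripk3 and kept Mlkl (Ripk3 KO with and without Ptpn6 deletion), Ugt1a6b ran from 32.5 to 63.9 CPM, Arl4c from 111 to 195 CPM and Klra17 from 101.2 to 151 CPM, all above the highest WT library. Clec1b ran from 0.245 to 0.598 CPM there and Stk11ip from 26.5 to 33.1 CPM, all below the lowest WT library. In the 11 further libraries with Mlkl knocked out the ranges were 36.2 to 60.8 CPM for Ugt1a6b, 98.4 to 175 CPM for Arl4c, 100.5 to 172 CPM for Klra17, 0.247 to 0.972 CPM for Clec1b and 25.9 to 34.8 CPM for Stk11ip. Klra16 had 8 to 62 counts in each of these 17 libraries and 14 in the 1 library with deletion of Casp8 and Ptpn6 and both Ripk3 and Mlkl intact, against 0 in each WT library. Mlkl itself was at 1.41 to 3.58 CPM in the 6 libraries with Mlkl intact and Ripk3 lost, under the WT range except for its upper end. In all 17 of these libraries Hebp1, Fam234b, Tnfrsf1b, Arrdc4 and Tgif2 were likewise above every WT library. Klrc1, Clec9a, Zfp141, Klri2 and Klra8 were below every WT library there. For these genes, what separates Mlkl KO from WT and what separates the WT libraries from the rest of the series cannot be told apart. Dleu2, another firm call, went as low as 31.2 CPM in the 11 further libraries, under the highest WT library.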

How the data were processed

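Bulk messenger RNA of bone marrow neutrophils was sequenced with paired reads of 100 bases, per the labels' protocols. The authors deposited estimated counts per gene, 35741 symbols by 25 libraries. The submitters' processing notes name Salmon 0.14.1, DESeq2 and GRCm38.p6, without giving their roles. The step from transcripts to genes is not given in the sources used here. Estimated counts were rounded to whole numbers. The library with conflicting genotype labels and the single Casp8 cKO Ptpn6 cKO library were left out of the tests. One model held the other 23 libraries, in 9 groups (edgeR 4.0.16, R 4.3.3, TMM scaling, filterByExpr with minimum count 10 and minimum total 15, quasi-likelihood F test, 14 residual degrees of freedom). A gene counted as called when its Benjamini-Hochberg adjusted p was below 0.05. CPM used the effective library sizes of that fit, and list means used log2(CPM + 0.1). Depth was about equal in all libraries. The floor of 3 counts over a group was a chosen setting, and fold bounds given at that floor scale with it. The fit was tested on simulated data.

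Members and the 28 gene lists (16 pathway, 12 marker) were chosen with earlier results of these data known. Named genes were the targeted genes, the 15 largest rises and falls of called genes that reached 5 CPM in the higher group, called list members and up to 3 leading members of other lists, called genes within 10 Mb of Mlkl or Ptpn6, Eif3j1 and Eif3j2, and the 5 smallest remaining p values. Predicted genes (31 called) were counted and not named. Genes outside this rule are said to have been picked after their values were seen, as were Fadd, Ripk1, Cflar, Tlr4, Myd88, Kif23, Ccnb2, Cdk1, Ctsc, Cd63, Mmp9, S100a8 and S100a9, given as uncalled list members, and those named from DESeq2 or the 6-library fit. Same-numbered libraries were not treated as paired. Replicates of each group differed beyond sampling noise. Positions come from GENCODE M21 (GRCm38) or RefSeq, for 95.9% of tested genes, and promoters from RefSeq (GRCm38.p6). Alternatives were DESeq2's size factors, no filter on low counts, DESeq2 1.42.0, a fit restricted to the compared libraries, a replicate block, a B cell marker covariate, and leaving out each library in turn.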

Additional observations from a re-analysis of the deposited data

How the results depend on the processing

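The count of 188 genes in Mlkl KO against WT was 788 with DESeq2 and 891 in a fit restricted to the compared libraries. It was 257 with DESeq2's size factors, 273 without a filter on low counts, 248 with a B cell marker covariate and 203 with the replicate block, which are within 1.5 times of it. Leaving out 1 library gave 38 to 589. Against Ripk3 KO the count of 1 was 2 with DESeq2 and 1 without any 1 library. Against Ripk3 KO Mlkl KO the count of 1 was 2 without a filter on low counts, 3 with DESeq2 and 2 in a fit restricted to the compared libraries, and 1 to 17 without 1 library. Of the 73 called genes named, 73 stayed called with DESeq2's size factors, 70 without a filter, 73 in a fit restricted to the compared libraries, 72 with the B cell covariate and 66 with the replicate block. No named call changed sign. Same-numbered libraries shared only a number: their deviations from group means correlated at 0.295, 0.003 and 0.087, and not every library correlated best with its own number. The replicate block lost the calls of Arrdc3, Cd300ld3, Far2, Grcc10, Mrpl44, Tlr6 and Trem1 (edgeR adjusted p 0.0511 to 0.0598). The cause of these changes was not tested. Where a group was left with 2 libraries the shared spread of the other groups carried the test.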

Other observations

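Some further called genes are given here, picked by the smallest p values or after their values were seen, with no list or test behind their grouping. Arrdc4, an alpha-arrestin that lowers glucose uptake, was at 64.9, 72.2 and 74.2 CPM in Mlkl KO, against 31.8, 36.6 and 40.4 CPM in WT (log2 change 0.96, SE 0.14, edgeR adjusted p = 0.00218). Its relatives Txnip, at 1227, 1511 and 1675 CPM in Mlkl KO against 887, 982 and 961 CPM in WT, and Arrdc3 were also called higher (edgeR adjusted p = 0.0163 and 0.0346), with calls that held without Mlkl KO replicate 1 and were lost in the other 5 fits without 1 library (edgeR adjusted p up to 0.127 and 0.207). Arrdc1 and Arrdc2 had log2 changes of 0.09 and 0.23 and were not called. Dleu2, a long non-coding RNA that hosts miR-15a and miR-16-1, was at 48.2, 79.2 and 48.8 CPM in Mlkl KO, against 22.7, 25.5 and 31.5 CPM in WT (edgeR adjusted p = 0.00313). Its neighbours Trim13, a ubiquitin ligase gene, and Kcnrg, a regulator of potassium channels, averaged 14.1 and 4.70 CPM in Mlkl KO, against 6.87 and 1.91 CPM in WT (edgeR adjusted p = 0.0012 and 0.00751), the call of Kcnrg being lost without WT replicate 2 or Mlkl KO replicate 3 (edgeR adjusted p up to 0.0561). Trim13 and Kcnrg lie on the strand opposite to Dleu2 and overlap it, and whether counting used strand is not given in the sources used here, so their values are uncertain where the genes overlap. The repressor gene Tgif2 was at 32.6, 28.6 and 48.7 CPM in Mlkl KO, against 16.4, 16.2 and 14.8 CPM in WT (log2 change 1.21, SE 0.17, edgeR adjusted p = 0.00108). The calls of Arrdc4, Dleu2, Trim13 and Tgif2 held without any 1 library.

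Trf, Slc25a37 and Slc40a1, 3 genes with roles in iron handling, were called higher and were picked after their values were seen. Trf, which encodes transferrin, averaged 168 ± 36.7 CPM in Mlkl KO and 79.1 ± 4.71 CPM in WT, the mitochondrial iron importer Slc25a37 569 ± 93.0 CPM in Mlkl KO and 332 ± 40.3 CPM in WT, and the iron exporter Slc40a1 479.9 ± 66.6 CPM in Mlkl KO and 324 ± 19.3 CPM in WT (SD, n = 3 each). These gave edgeR adjusted p of 0.0164, 0.0345 and 0.0307. The calls held without Mlkl KO replicate 1, that of Trf also without Mlkl KO replicate 3, and were lost in the other fits (edgeR adjusted p up to 0.224). Erythroid markers had a median log2 change of 0.30 over 13 genes with none called by edgeR or DESeq2 and 0 at an unadjusted p under 0.05, and they summed to 4275 to 7111 CPM in Mlkl KO and 2717 to 5989 CPM in WT. The part of erythroid RNA in these values was not tested. Of 3 further genes known to be induced by glucocorticoids, as Tsc22d3 is, edgeR called none. Per1 was at 84.3, 23.3 and 76.1 CPM in Mlkl KO, against 21.7 ± 1.53 CPM in WT (SD, n = 3), with Mlkl KO replicate 2 just above the highest WT library. Fkbp5 averaged 97.5 ± 30.9 CPM in Mlkl KO and 58.9 ± 2.29 CPM in WT, and Sgk1 133 ± 17.3 CPM in Mlkl KO and 94.0 ± 6.43 CPM in WT (SD, n = 3 each).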
